A study of Mus musculus with 6 samples.

Results

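Hnrnpdl, Hnrnpd and Hnrnpab are 3 related mouse genes for RNA-binding proteins of the heterogeneous nuclear ribonucleoprotein (hnRNP) family, and they account for 12 of the 45595 splicing events in a table of junction reads from Neuro-2a cells. Neuro-2a (N2a) is a mouse neuroblastoma line. All events assigned to these gene symbols in the 5 kinds of event of the table were taken. The 12 are all skipped exons, 5 in Hnrnpdl, 5 in Hnrnpd and 2 in Hnrnpab, and no alternative splice site, mutually exclusive pair or retained intron was listed for these genes. The series examined splicing in 3 libraries of N2a cells with hnRNP DL knocked out and 3 libraries of wild-type N2a cells. The labels give no method or site of the knockout and do not say whether it is 1 clone or whether libraries came from separate cultures, so a p-value speaks only of the spread among these libraries, which may be technical.

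The table names its groups only as sample 1 and sample 2, each with 3 libraries, and nothing ties either name to a genotype. They are called set 1 and set 2 here, every difference is set 1 minus set 2 or set 1 over set 2, and no genotype is attached to a value. Library 1, 2 or 3 is the position of a value within its set. Each event has reads on the junctions that include an exon and on the junction that skips it. The inclusion level is the share of the including form after each count is divided by the length of its form, from 0 to 1.

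hnRNP D, also called AUF1, binds AU-rich elements of messenger RNAs and is known for regulating their decay. hnRNP DL (JKTBP) and hnRNP AB (CBF-A) are its closest relatives. Each protein carries a pair of RNA recognition motifs followed by a tail rich in glycine and tyrosine, and alternative exons change the stretch before the motifs or the tail. Human HNRNPD and HNRNPDL are known to be spliced also beyond the stop codon, in UTR exons that mark a transcript for nonsense-mediated decay, the pathway that removes messages with an exon junction far behind the stop codon.

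The reads that define the alternative coding exons span the junctions printed here, because they show what joins what when an exon is used or passed over. The sequences are 15 bases on each side of a junction, written 5′ to 3′ on the minus strand of GRCm38 (the assembly of build mm10) from GENCODE vM21 transcripts. Capitals mark bases of the alternative exon, and lower case marks the neighbouring exons. In GENCODE vM21 the 4 exons are coding, at chromosome 5, 100036481 to 100036651 (Hnrnpdl, 171 bases), chromosome 5, 99963731 to 99963877 (Hnrnpd, 147 bases), chromosome 11, 51601750 to 51601890 (Hnrnpab, 141 bases) and chromosome 5, 99976534 to 99976590 (Hnrnpd, 57 bases).
Hnrnpdl 171-base exon, into the exon: gggggcgtggaagagGTCAGGGCCAAAACT
Hnrnpdl 171-base exon, out of the exon: ATGCAGACTACAGCGgtcagcagagcactt
Hnrnpdl 171-base exon skipped: gggggcgtggaagaggtcagcagagcactt
Hnrnpd 147-base exon, into the exon: gcggaagaggtggagGCCCCAGTCAAAACT
Hnrnpd 147-base exon, out of the exon: ATGGTGATTATAGCAatcagcagagtggtt
Hnrnpd 147-base exon skipped: gcggaagaggtggagatcagcagagtggtt
Hnrnpab 141-base exon, out of the exon: CCGGCTACGACTACAgtcagggtagtacaa
Hnrnpab 141-base exon skipped: gaggcagtggtggaggtcagggtagtacaa
Hnrnpd 57-base exon, into the exon: cgaggaggatgaaggCCATTCAAACTCCTC
Hnrnpd 57-base exon, out of the exon: ACAGCGGGAAGAATGgaaaatgtttatagg
Hnrnpd 57-base exon skipped: cgaggaggatgaagggaaaatgtttatagg

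The 171-base, 147-base and 141-base exons lie at the same place of the 3 genes, as the second coding exon after the 132-base exon, and all have a length divisible by 3. Each is in frame phase 2, so its first 2 bases complete a codon begun in the exon before it. Over aligned bases, the Hnrnpdl and Hnrnpd exons were 80.7% identical (113 of 140 bases). The Hnrnpdl and Hnrnpab exons were 69.3% identical (97 of 140) and the Hnrnpd and Hnrnpab exons 73.6% identical (95 of 129). In Hnrnpdl the alternative exon and the exon after it begin with the same 5 bases, while the 147-base exon of Hnrnpd and the exon after it differ in the first base. The 169-base exon at the start of the RNA-binding region has this length in all 3 genes and was 75.7% identical between Hnrnpdl and Hnrnpd, and 77.4% between Hnrnpdl and Hnrnpab.

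These 3 exons are rich in glycine and tyrosine codons. The 171-base exon of Hnrnpdl holds 14 glycine codons and 15 tyrosine codons among 56 complete codons, or 51.8%. In the 147-base exon of Hnrnpd the count was 12 glycine and 14 tyrosine codons of 48, or 54.2%. The 141-base exon of Hnrnpab has 13 glycine and 14 tyrosine codons of 46, or 58.7%. Across 8275 coding skipped exons of the table with a length divisible by 3 and 60 bases or more, the median share was 8.11%, and 8 exons reached that of Hnrnpdl, the 3 paralogues' exons among them. The 57-base exon of Hnrnpd, which lies before the RNA-binding motifs, has neither codon among 18.

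**Figure D1:**
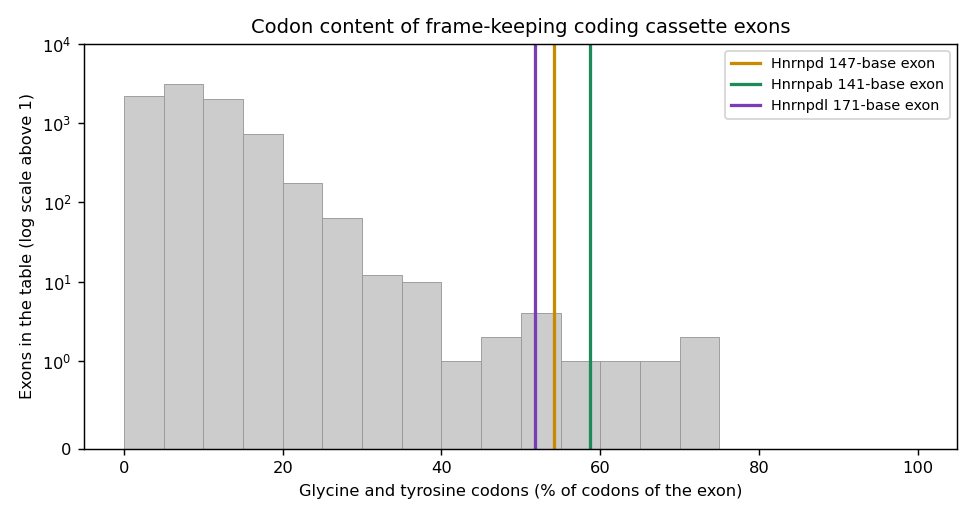
Share of glycine and tyrosine codons (x axis, percent) in 8275 coding skipped exons that keep the reading frame (bars, number of exons on a log scale above 1). Coloured lines mark the tail exons of Hnrnpdl (51.8%), Hnrnpd (54.2%) and Hnrnpab (58.7%), which lie far right of the median of 8.11%.

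The first comparison asked whether any exon of the 3 genes was included at another level in set 1 than in set 2. None was called. All 12 events had a mean count of 20 or more and were tested, and 0 of 12 passed the moderated quasi-binomial test (Benjamini-Hochberg adjusted p under 0.05 with a change of 0.10 or more). Over the whole table that test called 0 of 39419 events (0%), so a count of 0 sets the 3 genes apart from nothing. On simulated data the test recovered few modest changes, so the absence of calls does not show equal levels. At an unadjusted p under 0.05 it had 0 of 12 member events, against 3.45% of all events. Limma on logit levels also called 0 of 12 and 0% of all events, with 0 of 12 members and 3.3% of all events at an unadjusted p under 0.05. By the authors' deposited table, no event of these genes passed an adjusted p of 0.05 with a change of 0.10, against 0.645% of all events, and 1 of them had an unadjusted p under 0.05, against 7.19%.

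The changes themselves were small. The largest with all 6 libraries, 0.0333, belonged to the 141-base exon of Hnrnpab. Leaving out 1 library moved it between 0.0201 (without library 3 of set 2) and 0.0445 (without library 2 of set 2), and the 105-base exon of Hnrnpdl then reached -0.0545 (without library 3 of set 1). For comparison, the median absolute change among 5148 skipped exons of middle level (0.05 to 0.95) was 0.0343. The levels of the sets overlapped in 11 of 12 events, and 5.93% of all tested events did not overlap.

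**Figure D2:**
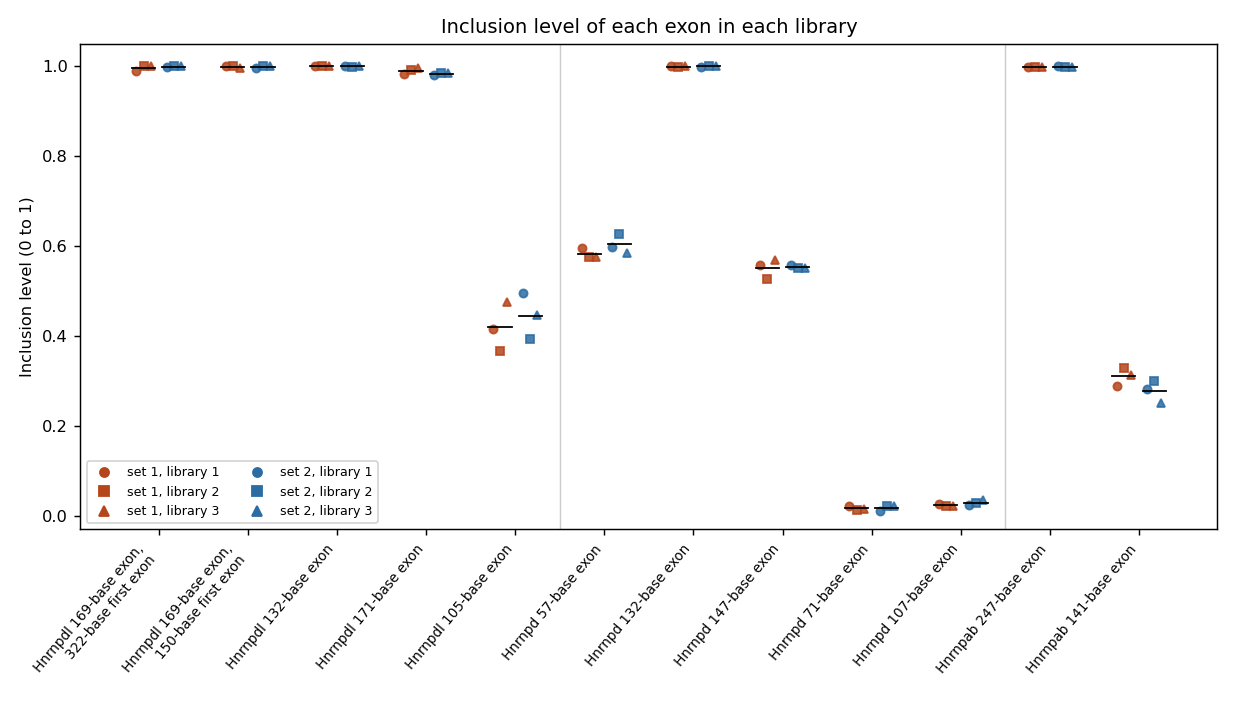
Inclusion level (y axis, 0 to 1) of the 12 exons in each library, with set 1 left of set 2 for every exon and a black line at the mean of 3 libraries. Between exons the levels run from 0.012 to 1, and within an exon the sets lie close together.

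The tail exon was used at very different levels in the 3 genes. It was nearly always included in Hnrnpdl, included in more than every other transcript in Hnrnpd, and skipped more often than included in Hnrnpab. The order Hnrnpdl over Hnrnpd over Hnrnpab held in all 6 libraries, and the ranges of the genes, 0.98 to 0.997, 0.527 to 0.57 and 0.251 to 0.33, did not overlap.

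In Hnrnpdl the 171-base exon had levels of 0.984, 0.993 and 0.997 in set 1, against 0.98, 0.986 and 0.986 in set 2. Both sets were close to full inclusion and they overlapped, the lowest library of set 1 lying under the upper 2 of set 2. Reads that skip the exon numbered 14, 6 and 2 in set 1, against 22, 14 and 12 in set 2. Their share of the event's reads was 22 of 4915 in set 1, or 0.448% (exact 95% interval 0.281 to 0.677), and 48 of 5757 in set 2, or 0.834% (0.615 to 1.1), where the intervals cover counting error only. The difference in log odds was 0.63 ± 0.38 (SE, 3 libraries per set; 95% interval -0.16 to 1.42), with a quasi-binomial adjusted p of 0.735. It is the only event of the 3 genes with an unadjusted p under 0.05 in the authors' deposited table (p = 0.0314, adjusted p = 0.597). In human hnRNP DL the matching exon is known as an alternative exon that the shortest isoform lacks.

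In Hnrnpd the 147-base exon had levels of 0.559, 0.527 and 0.57 in set 1, against 0.558, 0.551 and 0.551 in set 2. The libraries of set 2 lay inside the range of set 1. The mean was 0.552 in set 1 and 0.553 in set 2, and the difference in log odds was -0.01 ± 0.1 (SE; 95% interval -0.22 to 0.2), with a quasi-binomial adjusted p of 0.999. This interval is among the narrowest of the 12 events.

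In Hnrnpab the 141-base exon had levels of 0.29, 0.33 and 0.313 in set 1, against 0.282, 0.3 and 0.251 in set 2. Set 1 averaged 0.311 and set 2 averaged 0.278, and the sets overlapped through library 1 of set 1 and library 2 of set 2. Including reads came to 3408, 3175 and 2824 in set 1, against 3961, 2867 and 2367 in set 2. The skipping reads were 4300, 3322 and 3197 in set 1, against 5206, 3447 and 3637 in set 2. With counts this high the spread between libraries and not counting error set the precision: the moderated dispersion was 16.7 times the binomial one. The difference in log odds was 0.15 ± 0.08 (SE; 95% interval -0.02 to 0.32), with a quasi-binomial adjusted p of 0.735 and an adjusted p of 0.822 in the authors' deposited table. Its significance depends on how the dispersion is moderated: along the total count the quasi-binomial adjusted p was 0.0185, and 3.31e-05 in the form of that prior added after the data were seen, while under all other alternatives it lay between 0.254 and 0.844. Even there the event was not called, because its change is under 0.10. One annotated Hnrnpab transcript ends in a longer exon with the same start, so reads into that last exon count as inclusion here.

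The 57-base exon of Hnrnpd, which lengthens the stretch before the first RNA-binding motif, was included at 0.597, 0.577 and 0.575 in set 1, against 0.599, 0.627 and 0.586 in set 2. Set 1 averaged 0.583 and set 2 averaged 0.604, and the ranges overlapped. The difference in log odds was -0.08 ± 0.11 (SE; 95% interval -0.3 to 0.14), with a quasi-binomial adjusted p of 0.746. Together the 57-base and the 147-base exon define the AUF1 isoforms, which contain one, both or neither; junction reads measure each exon alone and cannot give the share of any isoform.

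**Figure D3:**
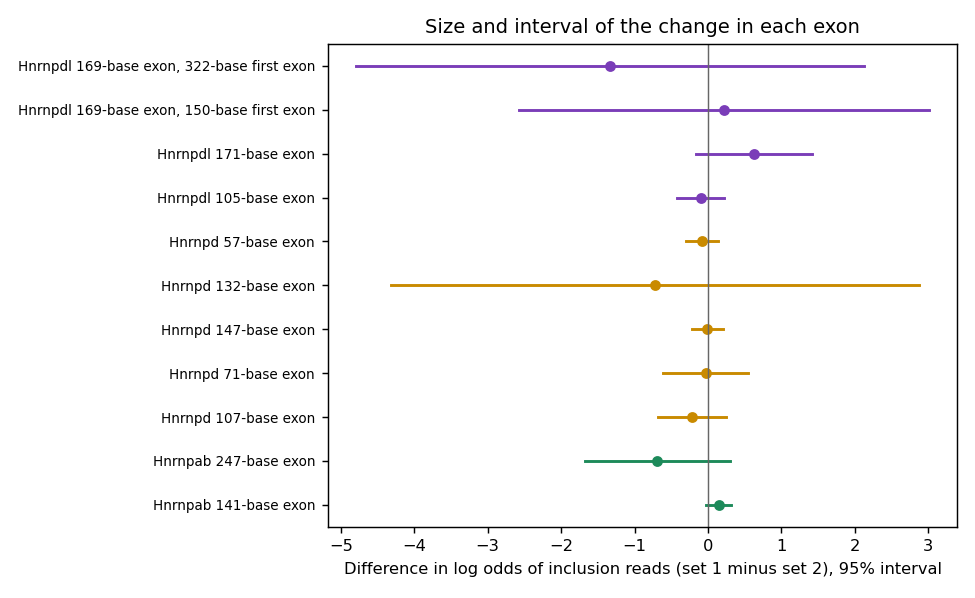
Difference in log odds of inclusion reads (x axis, set 1 minus set 2) with its 95% interval for 11 exons, coloured by gene; the 132-base exon of Hnrnpdl has no finite estimate because set 1 has 0 skipping reads. All intervals cover 0, and those of the nearly constant exons are wide because few reads carry the rarer form.

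Exons of the RNA-binding region were constant in every library. The 169-base exon of Hnrnpdl (chromosome 5, 100037813 to 100037981) is listed after each of 2 first exons, of 322 and 150 bases, which end at different donor sites. After the 322-base exon its level was 0.991, 1 and 1 in set 1, against 0.998, 1 and 1 in set 2. After the 150-base exon it was 1, 1 and 0.997 in set 1, against 0.997, 1 and 1 in set 2. Both sets were at or near full inclusion, with 3 skipping reads in set 1 and 1 in set 2 in the first event, and 2 in set 1 and 3 in set 2 in the second. The 2 events share the junction behind the exon, so they are not independent, and the difference of their including reads leaves the first exons alone. Reads from the donor of the 150-base exon exceeded those from the donor of the 322-base exon by 846, 685 and 731 in set 1, against 967, 846 and 797 in set 2. The donor of the 150-base exon therefore led in all 6 libraries. In GENCODE vM21 longer first exons of other Hnrnpdl transcripts, protein-coding ones among them, end at this donor too, while the donor of the 322-base exon belongs to a transcript annotated for nonsense-mediated decay.

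The 132-base exon, also part of the RNA-binding region, was skipped in Hnrnpdl by 0 of 5580 reads of set 1 (a count of 0 allows up to 0.0538%) and by 1 of 6749 reads of set 2. In Hnrnpd it was skipped by 2 of 6648 reads in set 1 and 1 of 6837 in set 2. Its level was 0.998 or higher in all 6 libraries in both genes, and no 132-base event was listed for Hnrnpab.

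The 247-base exon of Hnrnpab (chromosome 11, 51606340 to 51606586) holds the start codon. Its level was 0.998, 0.999 and 0.999 in set 1, against 1, 0.999 and 0.999 in set 2. Before rounding, each library of set 1 was under each of set 2, in this event alone of the 12. The difference was -0.000861 and rests on 9, 8 and 6 skipping reads in set 1, against 2, 5 and 6 in set 2, among 29354 reads of set 1 and 33141 reads of set 2. It did not pass the quasi-binomial test (adjusted p = 0.735).

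Beyond the stop codon the paralogues Hnrnpdl and Hnrnpd share one layout. In both, the exon with the stop codon is followed by an exon that can be skipped, and transcripts that include it are annotated for nonsense-mediated decay, or in 1 case in Hnrnpdl as a retained-intron transcript. In Hnrnpdl the stop codon lies 21 bases before the first junction behind it, which is the last junction when the 105-base exon (chromosome 5, 100035635 to 100035739) is skipped. Including that exon puts the last junction 126 bases behind the stop codon, and a further protein-coding transcript has no junction there. In Hnrnpd the distance is 30 bases with skipping, 137 bases with the 107-base exon (chromosome 5, 99962098 to 99962204) and 101 bases with its 71-base form. Hnrnpab has no junction behind the stop codon in its 3 annotated transcripts.

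Levels of these UTR exons differed strongly between the genes. A level here counts only transcripts spliced behind the stop codon, so it is not the share of all transcripts of the gene. The 105-base exon of Hnrnpdl had levels of 0.415, 0.367 and 0.477 in set 1, against 0.496, 0.394 and 0.446 in set 2. Its levels spread more widely within each set than those of any coding exon of the 3 genes, and the sets overlapped. Set 1 averaged 0.42 and set 2 averaged 0.445. The difference in log odds was -0.1 ± 0.15 (SE; 95% interval -0.42 to 0.22), with a quasi-binomial adjusted p of 0.791. Its including reads numbered 345, 250 and 358 in set 1, against 457, 365 and 362 in set 2.

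The 107-base exon of Hnrnpd was rarely included, at 0.026, 0.023 and 0.021 in set 1, against 0.025, 0.028 and 0.036 in set 2. The 71-base form had 0.022, 0.014 and 0.016 in set 1, against 0.012, 0.022 and 0.022 in set 2. Both stayed below every value of the Hnrnpdl exon in all 6 libraries. The 2 forms share the junction in front of the exon and the skipping reads, and the longer form had 10, 13 and 8 more including reads in set 1, against 23, 11 and 19 more in set 2. Quasi-binomial adjusted p-values were 0.735 for the 107-base exon (mean 0.0233 in set 1 and 0.0297 in set 2) and 0.989 for the 71-base form (mean 0.0171 in set 1 and 0.0186 in set 2). Transcripts under decay are removed from the RNA, so a level is that of the RNA present and not of the splicing choice as it was made.

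By level the 12 events ran from the 5 nearly constant ones through the 171-base exon of Hnrnpdl, the 57-base and 147-base exons of Hnrnpd, the 105-base exon of Hnrnpdl and the 141-base exon of Hnrnpab to the UTR exon forms of Hnrnpd. The ranges over the 6 libraries overlapped among the 5 constant events, between the 171-base exon and the 169-base exon of Hnrnpdl, and between the 107-base and 71-base forms (0.021 to 0.036 and 0.012 to 0.022). All other neighbours in this order had separate ranges. The 57-base and 147-base exons came close, at 0.575 to 0.627 and 0.527 to 0.57. Mean levels between 0.05 and 0.95 were found in 4 of the 12 events and in 18% of 28647 tested skipped exons, a difference that was not tested.

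**Figure D4:**
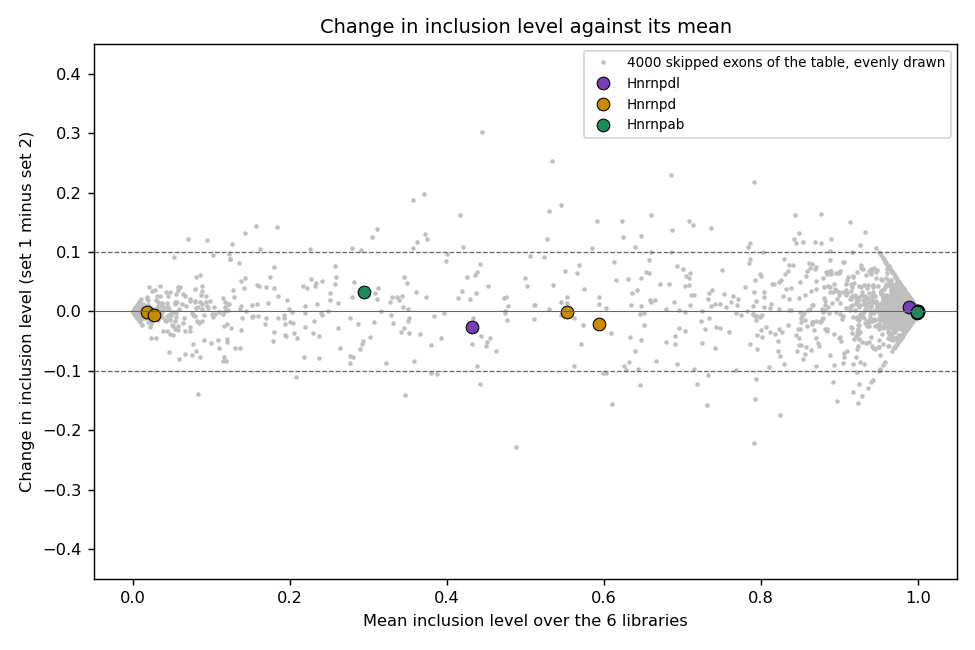
Change in inclusion level (y axis, set 1 minus set 2) against the mean level over 6 libraries (x axis) for 4000 skipped exons of the table (grey) and the 12 exons of Hnrnpdl, Hnrnpd and Hnrnpab (coloured). Dashed lines mark a change of 0.10 in either direction; all 12 exons lie between them, with a largest change of 0.0333.

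The second comparison asked how many junction reads each gene had. The total of an event is its including plus skipping reads, given as CPM, counts scaled to the library's sum over 8285 genes of each gene's most covered event, and tested as log2(CPM + 1) with limma. The targeted gene comes first. The 132-base event, which stands for Hnrnpdl, had 2014, 1806 and 1760 reads in set 1, against 2569, 2146 and 2034 reads in set 2. These are 399, 429 and 433 CPM in set 1, against 470, 502 and 502 CPM in set 2. Every library of set 1 was under every library of set 2, which held for 6.67% of genes. The log2 ratio was -0.22 ± 0.09 (SE, 3 libraries per set; 95% interval -0.42 to -0.03) and did not pass (limma adjusted p = 0.392), where 1.06% of genes passed. Its unadjusted p was under 0.05, as for 9.45% of genes, and those of Hnrnpd and Hnrnpab were not. Reads of Hnrnpdl were thus present throughout in all 6 libraries, and with the kind of knockout not given they do not check the labels. In bulk RNA, fewer cells with a transcript and fewer transcripts per cell cannot be told apart.

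The lower value in set 1 ran along the whole of Hnrnpdl. Log2 ratios of its 5 events, from the 5′ end, were -0.28, -0.22, -0.22, -0.18 and -0.21. In 4 of the 5 the sets did not overlap, set 1 being lower, against 6.68% of all events, and in the 105-base event they overlapped. Limma called 0 of the 12 event totals of the 3 genes (smallest adjusted p = 0.449), against 0.827% of all events. It had 3 of 12 at an unadjusted p under 0.05, all in Hnrnpdl, against 8.54% of all events. The 5 events are parts of the same transcripts and repeat one difference rather than showing it 5 times.

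Hnrnpd had 562, 450 and 472 CPM in set 1, against 595, 445 and 415 CPM in set 2. Library 1 was high in both sets, and the sets overlapped. The log2 ratio was 0.04 ± 0.13 (SE; 95% interval -0.25 to 0.33; limma adjusted p = 0.976), and its sign turns when all events of the gene are summed (-0.02). Its other event totals had log2 ratios from -0.07 to -0.03.

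Hnrnpab, the most abundant of the 3, had 1530, 2580 and 2640 CPM in set 1, against 1950, 2580 and 2820 CPM in set 2. Library 1 was low in both sets. The log2 ratio was -0.15 ± 0.18 (SE; 95% interval -0.54 to 0.25; limma adjusted p = 0.912), and without library 1 of set 1 it was 0.11. The low values belonged to the 5′ end of the gene. At the 141-base exon near the 3′ end the totals were 1530, 1540 and 1480 CPM in set 1, against 1680, 1480 and 1480 CPM in set 2, with no low library 1 and a log2 ratio of -0.02 ± 0.08 (SE).

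The ratio of the 5′ event to the 3′ event of Hnrnpab was 1, 1.68 and 1.78 in set 1, against 1.16, 1.75 and 1.9 in set 2. The same libraries stood apart over the table: among 2598 genes with events of 200 reads or more at separate places, the median log2 ratio of the 5′ to the 3′ event, centred per gene, was -0.13, 0.05 and 0.06 in set 1, against -0.12, 0.04 and 0.08 in set 2. For Hnrnpdl the 5′ event used was the one after the 322-base first exon and the 3′ event that of the 105-base UTR exon. Library 1 was lowest in set 1 only. The ratios of Hnrnpdl were 1.09, 1.32 and 1.17 in set 1, against 1.32, 1.09 and 1.35 in set 2. Those of Hnrnpd, from the 57-base event to the 71-base UTR form, were 2.42, 2.03 and 2.09 in set 1, against 2.39, 2.11 and 2.21 in set 2. Library 1 was highest in both sets. The 3′ events of Hnrnpdl and Hnrnpd count only transcripts spliced behind the stop codon. Ratios of these genes therefore do not measure the 5′ to 3′ difference alone and do not show whether either gene shares the pattern. The part of this 5′ to 3′ difference in the totals was not tested.

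**Figure D5:**
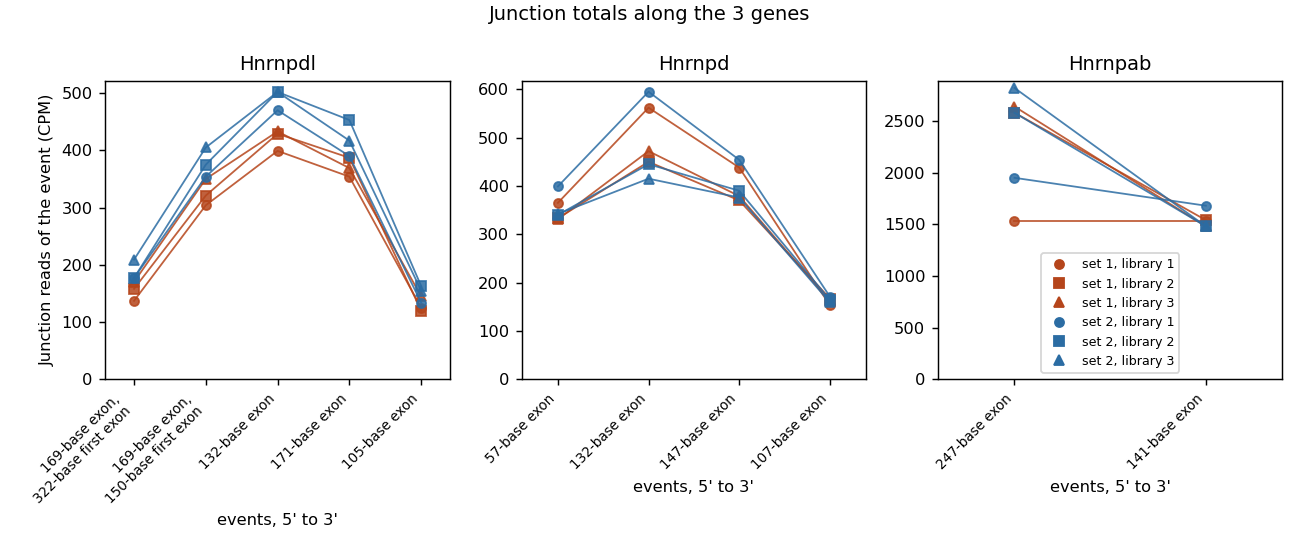
Junction reads of each event (y axis, CPM) along Hnrnpdl, Hnrnpd and Hnrnpab from 5′ to 3′ (x axis), 1 line per library; the 71-base form of Hnrnpd is left out because it shares its reads with the 107-base form. Set 1 lies below set 2 in all but the last event of Hnrnpdl, while in Hnrnpab library 1 is low at the 247-base exon (1530 CPM in set 1, 1950 CPM in set 2) and not at the 141-base exon.

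Divided by form length, so that genes can be compared, the level of the most covered event in CPM per base was 1.43, 1.53 and 1.55 for Hnrnpdl in set 1, against 1.68, 1.79 and 1.79 in set 2. It was 2.01, 1.61 and 1.68 for Hnrnpd in set 1, against 2.13, 1.59 and 1.48 in set 2. For Hnrnpab it was 5.15, 8.68 and 8.87 in set 1, against 6.55, 8.67 and 9.48 in set 2. By the mean of this level over the 6 libraries, Hnrnpab ranked 65 among 8285 genes, Hnrnpd 338 and Hnrnpdl 372. Hnrnpab lay above both paralogues in every library, and Hnrnpd lay above Hnrnpdl in 4 of 6 libraries, those of set 1 and library 1 of set 2.

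The genes whose centred log2 totals over the 6 libraries were nearest to those of Hnrnpdl were Zfand6, Denr and Cdr2l, with root mean square differences of 0.02, 0.03 and 0.03. The median over all genes was 0.22. The paralogues were no nearer than that, at 0.27 for Hnrnpd and 0.26 for Hnrnpab. With 6 values per gene and 8284 genes to choose from, near matches are bound to occur, and none of these 3 totals passed limma either.

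Other hnRNP genes and AU-rich element binding proteins give the surrounding picture. Of 31 other hnRNP and related genes, 29 were in the table with 216 tested events, of which 0 were called by the quasi-binomial test and 12 had an unadjusted p under 0.05 (5.56%, against 3.45% of all events). Of their 29 junction totals, 0 were called higher and 0 lower, where limma called 1.06% of all genes. The median log2 ratio was 0, against 0.01 over all genes. The smallest p-values of their totals belonged to Msi1, a Musashi RNA-binding protein, with a log2 ratio of -0.32 (limma adjusted p = 0.495), and to Ptbp2, the neuronal polypyrimidine tract binding protein, with -0.27 (adjusted p = 0.624). Among their events, an alternative 5′ splice site of Hnrnph1 had mean levels of 0.992 in set 1 and 1 in set 2 (quasi-binomial adjusted p = 0.431), and a 57-base exon of Msi1 (chromosome 5, 115447130 to 115447186) had 0.808 in set 1 and 0.706 in set 2 (adjusted p = 0.735). The authors' deposited table called 1 event of this list, which is another event of Hnrnph1, or 0.45% of its 222 events, against 0.645% of all events.

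Of 14 AU-rich element binding proteins and AUF1 partners, 10 were in the table with 74 tested events. The quasi-binomial test called 0 of them and 2 had an unadjusted p under 0.05 (2.7%, against 3.45% of all events). Their 10 junction totals held 0 calls, against 1.06% of all genes, with a median log2 ratio of 0.01. The smallest p-values of totals were those of Ybx1, a cold-shock domain protein (-0.21, limma adjusted p = 0.649), and Tia1, an AU-rich element binding translation regulator (0.2, adjusted p = 0.831). A 21-base exon of the translation factor gene Eif4g1 (chromosome 16, 20674786 to 20674806) had mean levels of 0.356 in set 1 and 0.46 in set 2. Its quasi-binomial adjusted p was 0.735, and it is the 1 event of this list called in the authors' deposited table (adjusted p = 0.0433), or 1.32% of its 76 events, against 0.645% of all events. A retained intron of Tia1 had mean levels of 0.684 in set 1 and 0.526 in set 2 (quasi-binomial unadjusted p = 0.0695, adjusted p = 0.735). It is not among the 2 events under 0.05, because only 1 event per gene is named here.

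Junction reads over all events came to between 13573870 and 16707466 per library in set 1 and between 13501749 and 18185394 in set 2, with a read counted again in each event it belongs to. Of 18 neuroblastoma and neuronal markers, 7 had a tested junction total. Dbh, the enzyme that makes noradrenaline, was lower in set 1 (4.17, 1.42 and 1.23 CPM, against 16.1, 14.3 and 13.8 CPM in set 2; limma adjusted p = 0.00347) and the other 6 did not pass. Limma called 1.06% of all genes. In libraries 2 and 3 of set 1 Dbh lay close to the 1 CPM added before the log, so few reads stand behind these values. Of 10 markers of other cells, 4 had events and none reached a mean count of 20. The table lists only genes with splicing events, so a marker without one, among them Th and Tubb3, is neither shown nor missing.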

How the data were processed

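The deposited table follows the layout of rMATS output. Per the file headers it holds, for each event, the authors' counts of junction reads, form lengths, inclusion levels (a fraction from 0 to 1), p-values and adjusted p. The submitters' processing notes name Bowtie2 2.2.3, HISAT2 2.1.0, HTSeq 0.6.0 and build mm10 without roles. The rMATS version and annotation were not given in the sources used here. Levels recomputed from counts and lengths were within 0.0005 of those deposited.

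Fits ran over the whole table in R 4.3.3 with limma 3.58.1, for the 39419 events whose count averaged at least 20. The quasi-binomial test compares binomial deviances within each kind of event. Its dispersion, at least 1, was moderated by how many reads the rarer form had, using events with at least 5. That minimum was first read as a sum over libraries (11 events called) and then as a mean per library (0 called, the form reported). The change was made after both counts were seen, and no exon of the 3 genes was called under either. Logit levels were held between 0.01 and 0.99. Junction totals used log2(CPM + 1), which understates changes of low genes.

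The members and lists were chosen with earlier results of these data known. Named were all exons of the 3 genes, in each of the 2 lists the genes that pass or else the 2 of smallest p, and the 3 genes of nearest totals. Tests were checked on simulated data, where the quasi-binomial form recovered few modest changes. Those changes were placed only in skipped exons where neither form was rare, with the same spread between libraries set for all exons. The check therefore does not cover the nearly constant exons. The simulation of junction totals was run in 3 forms, because library-sum scaling gave too many small p-values when changes lay mostly in one direction. Median of ratios scaling was run as an alternative. One junction sequence of Hnrnpab is not reported here. Sequences were read with Python 3.11.15 and aligned globally with Biopython 1.88, and figures drawn with matplotlib 3.10.9. Intervals for shares are exact Clopper-Pearson at 95%, and the limit for 0 reads is 3 counts of the total.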

Additional observations from a re-analysis of the deposited data

How the results depend on the processing

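No exon of the 3 genes was called under any alternative run (0 in each), although the adjusted p of the 141-base exon of Hnrnpab passed 0.05 with the dispersion prior along the total count (0.0185, and 3.31e-05 with summed reads), at a change of 0.0333. Leaving out 1 library moved that change between 0.0201 and 0.0445. Over the whole table, against 0 events called, 15 were called with the dispersion prior along the total count, 11 with the prior from events with 1 or more reads of the rarer form, and 0 to 5 when 1 library was left out (5 without library 1 of set 1, 2 without library 3 of set 1). Alternatives added after seeing the data, with reads of the rarer form summed over the libraries, called 11 (5 or more reads), 13 (1 or more reads) and 64 (along the total count). The authors' deposited table called 294 events, 135 at an adjusted p under 0.01 and 145 at a change of 0.20 or more.

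The log2 junction total of Hnrnpd turned from 0.04 to -0.02 with all events of the gene summed, and leaving out 1 library moved it between -0.06 and 0.2. That of Hnrnpab ranged from -0.3 to 0.11 and that of Hnrnpdl from -0.26 to -0.19. The number of genes with a called total (88) ranged from 25 to 291, the highest without library 1 of set 1; median of ratios scaling gave 86. Signs also turned with 1 library left out in inclusion levels of the 169-base exon of Hnrnpdl (-0.00363 to 0.000688 after the 322-base and -0.000936 to 0.00103 after the 150-base first exon), its 105-base exon (-0.0545 to 0.000573), and the 132-base (-0.000797 to 0.000192), 147-base (-0.0107 to 0.0109) and 71-base exons of Hnrnpd (-0.00481 to 0.000189). Event totals turned for the 57-base (-0.11 to 0.01), 132-base (-0.06 to 0.2), 147-base (-0.11 to 0.04) and 71-base exons of Hnrnpd (-0.05 to 0.01) and the 247-base (-0.3 to 0.11) and 141-base exons of Hnrnpab (-0.05 to 0.04). The causes were not tested. No paired analysis was possible because the columns carry no replicate numbers. Depth limits the nearly constant exons, where few reads carry the rarer form.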
